A study of Homo sapiens with 6 samples.

Results

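The transcripts described here are the antisense RNAs of the deposited table that carry the name of another gene followed by -AS and a number. Besides the name, the 6 libraries had to average at least 10 normalised counts, where a normalised count is the number of reads of a gene divided by the size factor of its library. Of 844 rows with such a name, 201 reached the mean of 10 and are the members, 315 had reads but a lower mean, and 328 had 0 reads in every library. They are 201 of the 14889 genes that were tested, out of 57820 gene rows. The sense partner of a member is the gene it is named after. A row of that name was found for 195 members, and it was itself tested for 175 of them, which are 172 different genes because DLGAP1, GAS6 and MKLN1 have 2 members each. The members without a partner row were C17orf76-AS1 and 5 RNAs named for a whole HOX cluster.

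The cells were U2OS, an established human osteosarcoma line, treated for 4 h with 5 µM NMS-873 in DMSO or with 0.05% DMSO alone, with 3 libraries of each. NMS-873 inhibits VCP (p97), an ATPase that unfolds ubiquitylated proteins, by binding away from its active site, and the comparison asked how transcript levels responded. Polyadenylated RNA was sequenced with a kit that keeps the strand, so antisense RNAs without a poly(A) tail would be missed, and each library held between 21132311 and 22488952 reads in genes. Nothing in the labels says that the libraries of a group came from separate cultures. The p-values then measure the spread between these 6 samples alone, and that spread may be technical. Of 9 osteoblast lineage markers 5 reached a mean of 10, with COL1A1 at 225 FPKM (fragments per kilobase of transcript, scaled to depth) and SPARC at 442 FPKM with DMSO. COL1A2 was at 0.0450 FPKM, IBSP had 0 reads, and SP7 and BGLAP were below a mean normalised count of 1. Of 5 epithelial markers 4 reached a mean of 10, with KRT8 at 101 and KRT18 at 119 FPKM with DMSO, and so did 1 of 4 blood and 1 of 2 endothelial markers. In bulk RNA, fewer cells making a transcript and less of it per cell cannot be told apart.

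An antisense RNA is read from the strand opposite to another gene. Some start close to the start of that gene and run away from it, from a stretch of DNA that works as a promoter in both directions, and others begin inside the gene or beyond its end and run back through it. Some are known to act on their neighbour in cis, for example by recruiting chromatin factors or by interfering with its transcription. For most no function is known. Many are unstable nuclear RNAs, and several host small nucleolar RNAs in their introns or encode short proteins.

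By the positions in the deposited table, build hg19, the starts of 93 pairs on opposite strands lay within 1000 bases of each other and those of 101 lay further apart. In 46 pairs the RNAs ran away from each other without overlapping, with a median of 152.5 bases between the starts, and in 86 they overlapped head to head, with a median of 917 bases. A further 33 pairs overlapped tail to tail, 18 members lay inside their partner, 11 partners lay inside the member, and HNRNPU-AS1 was annotated on the same strand as HNRNPU. In RefSeq (GRCh38.p14), windows from 250 bases before to 50 bases after the start were found for 161 members, and for 143 pairs on both sides. In 45 of those pairs the windows of the 2 genes shared bases. The window found for HNRNPU-AS1 was that of HNRNPU itself. Some members were matched to a RefSeq gene of another name, such as TNRC6C-AS1 to TMC6 and RPA3-AS1 to UMAD1. RefSeq starts can differ from those of the deposited table, and no coordinate was carried from one build to the other. The windows of 5 members with much shared sequence are printed, since they hold pairs called in the same direction, in opposite directions and for the antisense RNA alone; no pair is printed in which neither RNA, or the sense gene alone, was called. Each is written 5′ to 3′ on the strand of the antisense RNA, and capitals mark the bases that also lie in the window of the sense partner.
DNAJC3-AS1: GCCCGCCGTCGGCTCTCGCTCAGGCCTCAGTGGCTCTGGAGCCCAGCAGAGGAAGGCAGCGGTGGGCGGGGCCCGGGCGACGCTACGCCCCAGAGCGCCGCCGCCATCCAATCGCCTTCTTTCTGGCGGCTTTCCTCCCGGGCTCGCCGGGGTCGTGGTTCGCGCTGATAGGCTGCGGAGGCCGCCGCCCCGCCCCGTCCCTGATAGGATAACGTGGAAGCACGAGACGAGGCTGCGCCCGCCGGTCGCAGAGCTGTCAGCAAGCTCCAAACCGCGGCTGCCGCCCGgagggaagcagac
JHDM1D-AS1: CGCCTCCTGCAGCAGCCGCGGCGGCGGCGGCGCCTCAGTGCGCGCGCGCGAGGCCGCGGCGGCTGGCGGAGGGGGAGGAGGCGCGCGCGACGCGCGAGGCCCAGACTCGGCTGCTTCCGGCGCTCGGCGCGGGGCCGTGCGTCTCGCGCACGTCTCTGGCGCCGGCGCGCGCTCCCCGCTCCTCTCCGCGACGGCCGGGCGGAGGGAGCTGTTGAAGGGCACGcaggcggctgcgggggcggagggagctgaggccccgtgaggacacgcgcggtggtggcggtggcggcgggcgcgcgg
NCBP2-AS2: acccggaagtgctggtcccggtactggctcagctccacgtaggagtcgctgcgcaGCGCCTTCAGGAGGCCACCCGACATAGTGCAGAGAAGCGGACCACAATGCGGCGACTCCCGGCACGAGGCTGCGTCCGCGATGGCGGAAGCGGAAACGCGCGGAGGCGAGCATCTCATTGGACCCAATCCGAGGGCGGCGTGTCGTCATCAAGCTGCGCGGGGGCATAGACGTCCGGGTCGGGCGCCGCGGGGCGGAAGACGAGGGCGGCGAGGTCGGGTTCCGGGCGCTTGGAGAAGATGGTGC
RSBN1L-AS1: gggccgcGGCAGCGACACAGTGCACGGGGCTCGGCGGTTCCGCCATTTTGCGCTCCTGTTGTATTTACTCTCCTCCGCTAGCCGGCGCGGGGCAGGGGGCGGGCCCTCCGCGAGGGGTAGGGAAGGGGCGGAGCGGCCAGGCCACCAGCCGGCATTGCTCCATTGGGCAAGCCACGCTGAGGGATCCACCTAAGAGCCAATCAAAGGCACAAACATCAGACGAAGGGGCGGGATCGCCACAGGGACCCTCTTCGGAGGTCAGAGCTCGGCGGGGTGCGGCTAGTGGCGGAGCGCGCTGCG
TMEM161B-AS1: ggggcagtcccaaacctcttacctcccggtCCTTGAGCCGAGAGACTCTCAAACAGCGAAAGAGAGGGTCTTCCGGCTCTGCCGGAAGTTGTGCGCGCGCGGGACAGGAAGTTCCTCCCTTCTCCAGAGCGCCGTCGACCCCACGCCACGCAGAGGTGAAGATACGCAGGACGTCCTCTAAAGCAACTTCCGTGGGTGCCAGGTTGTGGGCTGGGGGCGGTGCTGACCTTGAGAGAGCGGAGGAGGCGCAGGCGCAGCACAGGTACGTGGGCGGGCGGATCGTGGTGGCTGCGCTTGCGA
The window of DNAJC3-AS1 (listed by RefSeq as DNAJC3-DT) is chr13:95676876-95677175 on the minus strand and shares 287 bases with that of DNAJC3. The window of JHDM1D-AS1 (KDM7A-DT) is chr7:140177011-140177310 on the plus strand, with 223 shared bases. That of NCBP2-AS2 (NCBP2AS2) is chr3:196942424-196942723 on the plus strand, with 245 shared bases. That of RSBN1L-AS1 (APTR) is chr7:77696216-77696515 on the minus strand, with 293 shared bases. That of TMEM161B-AS1 (TMEM161B-DT) is chr5:88268766-88269065 on the plus strand, with 270 shared bases.

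These 5 pairs did not behave alike with NMS-873. DNAJC3-AS1 and DNAJC3 both rose, as did JHDM1D-AS1 and JHDM1D. NCBP2-AS2 and NCBP2 both fell. RSBN1L-AS1 rose while RSBN1L did not pass the test, and TMEM161B-AS1 fell while TMEM161B rose. Over the 45 pairs with shared bases, all with a tested partner, 6 were called in the same direction, 3 in opposite directions, 24 on one side only and 12 on neither. Over all 175 pairs with a tested partner, which include these 45, 26 were called in the same direction, 11 in opposite directions and 43 on neither side. The shares are thus close, and no difference was tested.

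A search of the windows for response elements, on both strands and for exact letters only, gave few matches. Sites that differ from an element by a letter were not counted. The ER stress response element, ERSE, was in 0 of the 161 member windows and in 0.0806% of all 27305 RefSeq windows. Its variant ERSE-II and the ATF4 site (TTGCATCA) were also in 0 member windows, against 0.0549% and 0.923% of all. The UPRE (TGACGTGG) was in 2 member windows and the CRE (TGACGTCA) in 5, against 0.795% and 1.98% of all windows. The E-box (CACGTG), the site of MYC and MAX, was in 17 member windows, or 10.6%, against 7.43% of all. ERSE has CCAAT at one end and CCACG at the other. The window of DNAJC3-AS1 held CCAAT 1 time and CCACG 2 times, without an exact match to the whole element, and inexact matches were not searched for. CCAAT was in 57 member windows, or 35.4%, against 35.7% of all, and CCACG in 81, or 50.3%, against 37.9%. Some of these motifs overlap each other. These counts describe letters in these windows and say nothing on binding.

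The antisense RNAs were mostly scarce, and more of them fell than rose. With NMS-873 14 of the 201 rose and 77 fell, at an adjusted p under 0.05 in limma over all genes tested. Among all genes tested 14.9% were called higher and 33.0% lower, while of the members 6.97% were called higher and 38.3% lower. The median log2 change of the members was -0.28, against -0.10 for all genes tested. A change of at least 2-fold (on the log2(normalised count + 1) scale, as for all changes below) was called for 5 that rose and 13 that fell. Of these 13, 8 passed the minimum mean only through their DMSO libraries, while 0 of those that rose passed it only through NMS-873 libraries. The share of all genes tested with a change of that size is not given here. These counts alone therefore do not show that large falls outnumbered large rises more than among other genes. The values are scaled to spike-in RNA. With size factors taken from the genes instead, 18 members rose (8.96%) and 60 fell (29.9%), beside 25.3% and 20.9% of all genes tested. That scaling moved the median of all genes tested to 0.000787, which is largely fixed by construction, since these factors are taken from the genes themselves. The median of the members moved to -0.19. The 3 libraries of each treatment did not overlap in 19 members that were higher and 93 that were lower with NMS-873, beside 16.4% and 37.2% of all genes tested, and overlapped in 89.

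Because the members were mostly low, the shares called are also given by level. The median member had a mean normalised count of 46.4, against 455 for all genes tested, and a mean of 0.786 FPKM, against 4.38 FPKM. Of 102 members with a mean between 10 and 50, 2 rose (1.96%) and 25 fell (24.5%), and of all genes at that level 4.7% were called higher and 22.5% lower. Of 66 members between 50 and 200, 6 rose (9.09%) and 33 fell (50%), beside 9.7% and 37.1% of all genes there. Of 33 members with a mean of at least 200, 6 rose (18.2%) and 19 fell (57.6%), beside 19.3% and 35.0% of all genes there. The shares that rose were thus close to those of genes of like level in the upper 2 ranges and below them in the lowest. The shares that fell were above those of genes of like level in each range, by the least in the lowest, and no test was made of these differences.

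**Figure D1:**
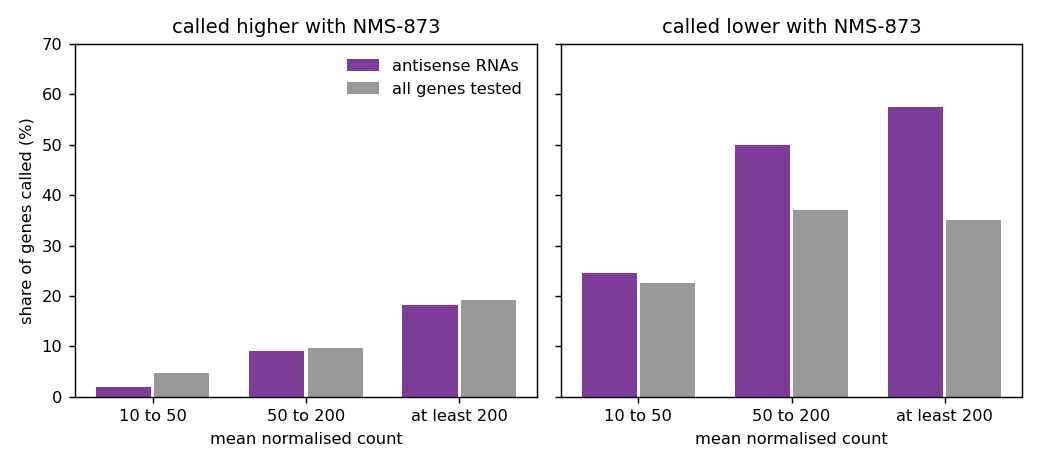
Share of genes (%) called higher (left) or lower (right) with NMS-873 at an adjusted p under 0.05 in limma, by mean normalised count, for the antisense RNAs and for all genes tested. Of antisense RNAs with a mean of at least 200, 57.6% were called lower, against 35.0% of all genes at that level.

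At the edge of the rule, the members with the lowest means were SEC24B-AS1 at 10.2 and DNAJC27-AS1 at 10.3 normalised counts, and the rows just below it were PSMD6-AS2 at 9.93 and FGF12-AS3 at 9.85. SEC24B-AS1 reached the mean of 10 through its DMSO libraries. In 17 members the mean of 1 treatment was under 10, and 8 of these were called lower and 0 higher at an adjusted p under 0.05 in limma. These 8 were ITGB2-AS1, SEC24B-AS1, ANO1-AS2, HOXC-AS3, RUSC1-AS1, STEAP3-AS1, DBH-AS1 and ACVR2B-AS1, each of which passed the minimum through its DMSO libraries. The 3 values of DNAJC27-AS1 with NMS-873 lay within the range of its DMSO values.

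DNAJC3-AS1 (ENSG00000247400.3; chromosome 13, 96300987 to 96329179, hg19, minus strand) had the largest rise of the members. Its normalised counts were 27.8, 19.02 and 30.8 with DMSO and 73.2, 71.5 and 87.9 with NMS-873. Every NMS-873 library lay above every DMSO library, by a 2.97-fold difference (log2 change 1.57, SE 0.183, adjusted p = 1.83e-14). Its partner DNAJC3, a co-chaperone of BiP in the endoplasmic reticulum that also inhibits kinases of eIF2 alpha, lies on the other side of a gap of 213 bases. DNAJC3 was at 1085.5 ± 45.8 normalised counts in the DMSO libraries and 4688 ± 143 with NMS-873 (SD, n = 3 libraries each), a log2 change of 2.11 (SE 0.0546). The antisense RNA rose less than the gene: the log2 ratio of DNAJC3-AS1 to DNAJC3 was -5.37 on average with DMSO and -5.91 with NMS-873, with no overlap between treatments. An exact two-sided permutation test of this ratio gave p = 0.1, the smallest that 3 against 3 libraries allow, as in every pair below whose ratio did not overlap. Since both genes of a pair were read in the same libraries, this ratio does not depend on how the libraries are scaled beyond the effect of the pseudocount.

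RSBN1L-AS1 (ENSG00000214293.4; chromosome 7, 77286977 to 77325582, minus strand), which RefSeq lists as APTR, an RNA known for silencing the cell cycle inhibitor gene CDKN1A, rose without its neighbour. It was at 117, 125 and 136 normalised counts in the DMSO libraries and 279, 292 and 296 with NMS-873. The rise was 2.29-fold (log2 change 1.19, SE 0.0982, adjusted p = 1.75e-25). The groups stood well apart. RSBN1L, whose start is 178 bases away in the deposited table, was at 899 ± 32.1 with DMSO and 896 ± 13.4 with NMS-873, with a log2 change of -0.00445 (adjusted p = 0.959).

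THAP9-AS1 (ENSG00000251022.2; chromosome 4, 83814162 to 83822113, minus strand) was the most abundant RNA among the large rises, at 433, 418 and 395 normalised counts in the DMSO libraries and 938, 857 and 889 with NMS-873. It rose 2.15-fold (log2 change 1.11, SE 0.0673, adjusted p = 5.86e-40). Its partner THAP9, which encodes a protein related to a transposase, starts 276 bases from it on the opposite strand and was at 83.9 ± 6.68 and 85.1 ± 15.7 normalised counts (log2 change 0.00552, adjusted p = 0.979). The antisense RNA was here the larger product of the locus in both treatments: the log2 ratio of the counts was 2.30 with DMSO and 3.40 with NMS-873.

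SNAI3-AS1, CRYM-AS1 and EPHA1-AS1 rose at loci where the sense gene was scarcely read. SNAI3-AS1 (chromosome 16, 88729706 to 88753594) was at 32.9, 27.6 and 37.7 normalised counts in the DMSO libraries and 75.2, 89.1 and 105 with NMS-873 (log2 change 1.43, adjusted p = 2.41e-14). SNAI3, a transcription repressor of the Snail family that lies inside it, had means of 2.28 and 2.02 and was not tested. CRYM-AS1 (chromosome 16, 21312170 to 21329912) was at 18.5, 15.2 and 10.9 with DMSO and 40.1, 22.5 and 38.3 with NMS-873 (log2 change 1.11, adjusted p = 8.54e-05), without overlap. CRYM, which binds thyroid hormone, had means of 8.27 and 3.67. EPHA1-AS1 was at 25.7, 7.61 and 13.9 with DMSO and 33.1, 27.4 and 26.9 with NMS-873 (log2 change 0.99, adjusted p = 8.76e-04), close together but without overlap. This call rested on DMSO replicate 2: without it the log2 change was 0.59 and the adjusted p 0.0653. It was also lost without the variance trend (adjusted p = 0.0891). EPHA1, an ephrin receptor, had means of 1.00 and 0.979 normalised counts.

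EPB41L4A-AS1, a host of a small nucleolar RNA, and DLGAP1-AS2 rose by less and lie inside long partners. EPB41L4A-AS1 was at 208, 224 and 231 normalised counts in the DMSO libraries and 312, 326 and 357 with NMS-873 (log2 change 0.58, adjusted p = 1.32e-09). DLGAP1-AS2 was at 211, 216 and 186 with DMSO and 313, 278 and 302 with NMS-873 (log2 change 0.54, adjusted p = 4.24e-08). In both the groups did not overlap, and neither EPB41L4A (log2 change -0.0343, adjusted p = 0.873) nor DLGAP1 (log2 change 0.0820, adjusted p = 0.729) passed the test. EIF3J-AS1 and HOXD-AS1, named after their values were seen, also rose, with log2 changes of 0.27 and 0.42. Without DMSO replicate 1, 2 of the 14 rises were no longer called, JHDM1D-AS1 and either EIF3J-AS1 or HOXD-AS1. Without NMS-873 replicate 3, 1 rise was lost, again EIF3J-AS1 or HOXD-AS1.

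**Figure D2:**
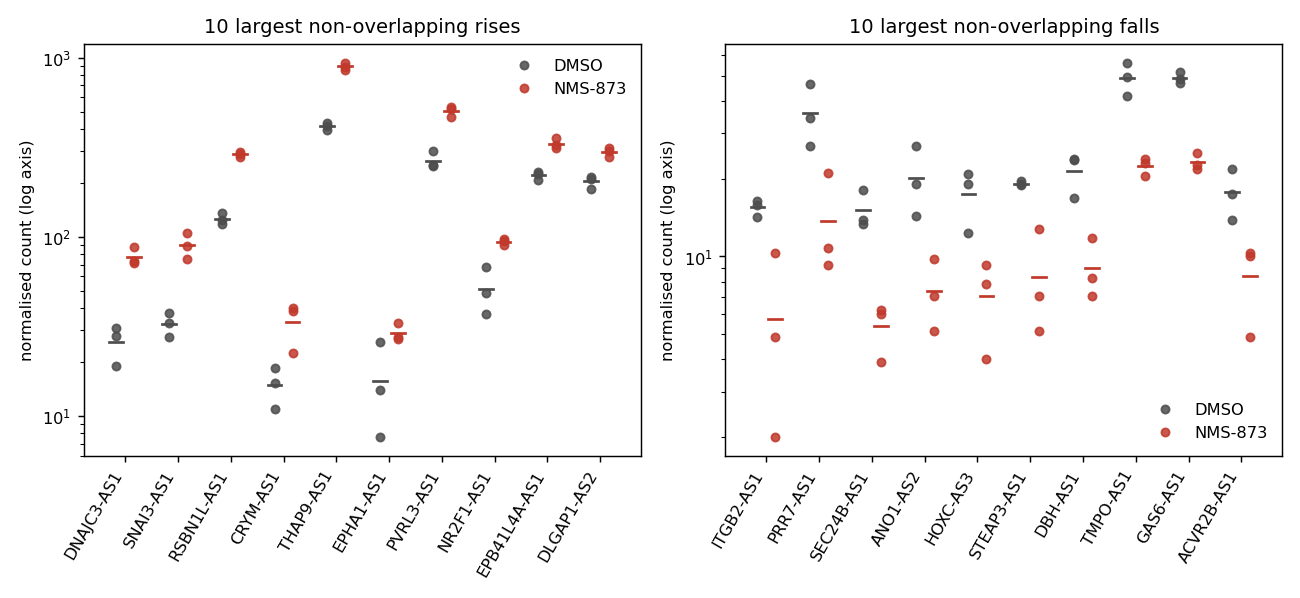
Normalised counts (log axes) of the 10 antisense RNAs with the largest rises (left) and the 10 with the largest falls (right) among those called whose treatments do not overlap, per library, with bars at the group means. The separation of the treatments was a condition of the choice, and RNAs called with overlapping libraries, such as RUSC1-AS1, are not shown. Most values in the right panel are below 50 normalised counts.

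The largest falls were of RNAs with few reads, and all but PRR7-AS1, TMPO-AS1 and GAS6-AS1 of those described next passed the minimum only through their DMSO libraries. ITGB2-AS1, named for the leukocyte integrin gene ITGB2, was at 16.5, 14.3 and 15.9 normalised counts in the DMSO libraries and 2.00, 4.89 and 10.3 with NMS-873 (log2 change -1.49, SE 0.386, adjusted p = 5.37e-04). Its NMS-873 libraries spread widely but all lay below the DMSO ones. RUSC1-AS1, named after its values were seen, fell by 1.20 on the log2 scale (adjusted p = 0.00225) with overlapping libraries, at 19.5, 13.3 and 22.8 with DMSO and 9.02, 17.6 and 2.07 with NMS-873. PRR7-AS1 was at 46.3, 34.2 and 26.8 with DMSO and 21.1, 10.8 and 9.31 with NMS-873 (log2 change -1.37, adjusted p = 1.66e-06). ANO1-AS2, HOXC-AS3, DBH-AS1 and ACVR2B-AS1 fell by 1.33, 1.23, 1.18 and 1.03 on the log2 scale, from DMSO means of 20.1, 17.4, 21.4 and 17.7 normalised counts. The call of ACVR2B-AS1 was lost without DMSO replicate 2 (log2 change -0.88, adjusted p = 0.0613) and without NMS-873 replicate 2 (log2 change -0.72, adjusted p = 0.0753). DBH, the enzyme that makes noradrenaline, had 0 reads in every library, while its antisense RNA was read in all 6.

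TMPO-AS1 and GAS6-AS1 fell about as far from a higher level. TMPO-AS1 (chromosome 12, 98906751 to 98910200, minus strand) was at 49.4, 56.1 and 41.7 normalised counts in the DMSO libraries and 23.1, 20.6 and 23.8 with NMS-873 (log2 change -1.09, SE 0.208, adjusted p = 2.34e-06). TMPO, a lamina-associated protein of the inner nuclear membrane, fell less, from 3393 ± 184 to 2628 ± 177 (log2 change -0.37, adjusted p = 8.70e-10), and the ratio of the pair was lower with NMS-873 in all 3 libraries. GAS6-AS1 was at 51.4, 48.5 and 46.6 with DMSO and 25.1, 22.5 and 21.7 with NMS-873 (log2 change -1.05, adjusted p = 4.03e-06). GAS6, the ligand of the TAM receptor kinases, was at 2121 ± 56.6 and 1969 ± 84.7 and did not pass the test (adjusted p = 0.0950).

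The most abundant members per length changed little or fell by less than 2-fold. C17orf76-AS1, a host of small nucleolar RNAs, led with 67.0 FPKM; its counts were 5483, 5238 and 5621 with DMSO and 5358, 5693 and 5652 with NMS-873, overlapping groups (log2 change 0.0316, adjusted p = 0.654). With gene-based size factors this became a rise of 0.14 (adjusted p = 0.00107). FGD5-AS1, at 28.99 FPKM, fell from 3614 ± 129 to 2888 ± 128 normalised counts (log2 change -0.32, adjusted p = 5.47e-08). NCBP2-AS2, at 23.3 FPKM and typed as protein coding in GENCODE 29, fell by 0.41 on the log2 scale (adjusted p = 4.99e-07). Its partner NCBP2, a subunit of the nuclear cap-binding complex, fell by 0.16 (adjusted p = 0.0108). BAIAP2-AS1, at 18.5 FPKM, was at 2169, 2195 and 2190 normalised counts in the DMSO libraries and 1387, 1573 and 1595 with NMS-873 (log2 change -0.53, adjusted p = 5.05e-17). BAIAP2, which bends membranes at actin-rich protrusions, had a log2 change of -0.0952 (adjusted p = 0.138). ZNF674-AS1, at 13.5 FPKM, was not called (log2 change 0.0911, adjusted p = 0.263) but rose with gene-based size factors (log2 change 0.20, adjusted p = 0.00421). APCDD1L-AS1, at 12.7 FPKM, fell from 1570 ± 71.9 to 1175 ± 53.9 normalised counts (log2 change -0.42), beside a fall of APCDD1L (log2 change -0.66).

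The sense partners as a group were closer to all genes than the antisense RNAs were. Of the 172 tested partners 30 rose (17.4%) and 62 fell (36.05%), beside 14.9% and 33.0% of all genes tested, and their median log2 change was -0.0935. With gene-based size factors 49 partners rose and 41 fell and their median was 0.0107. The direction of that group thus rests on the scaling, as does that of all genes tested, whose median became 0.000787, largely by construction. The partners were also higher, with a median of 884 normalised counts. The median member reached 13.95% of the FPKM of its tested partner, and in 31 of 175 pairs the antisense RNA had the higher FPKM.

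Changes of the members and of their partners followed each other only weakly. In 26 of the 175 pairs both were called in the same direction, in 24 of them lower, and in 11 they were called in opposite directions. Of the 10 members with a tested partner that rose, 2 had a partner that rose, 3 one that fell and 5 one that did not pass the test. Of the 67 that fell, 24 had a partner that fell, 8 one that rose and 35 one that did not pass. Of all 172 tested partners 36.05% fell and 17.4% rose. The 24 of 67 are thus close to the share of partners that fell, and the 8 are below the share that rose. Beside the members that were not called, 35 partners fell, 20 rose and 43 did not pass. The sign of the change was shared by 110 of 175 pairs. Across pairs, Pearson's r of the 2 log2 changes was 0.23 and Spearman's rho 0.11, and r was 0.13 without DNAJC3-AS1. The pairs share libraries and scaling and are not independent replicates. With gene-based size factors 18 pairs were called in the same direction and 14 in opposite directions.

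**Figure D3:**
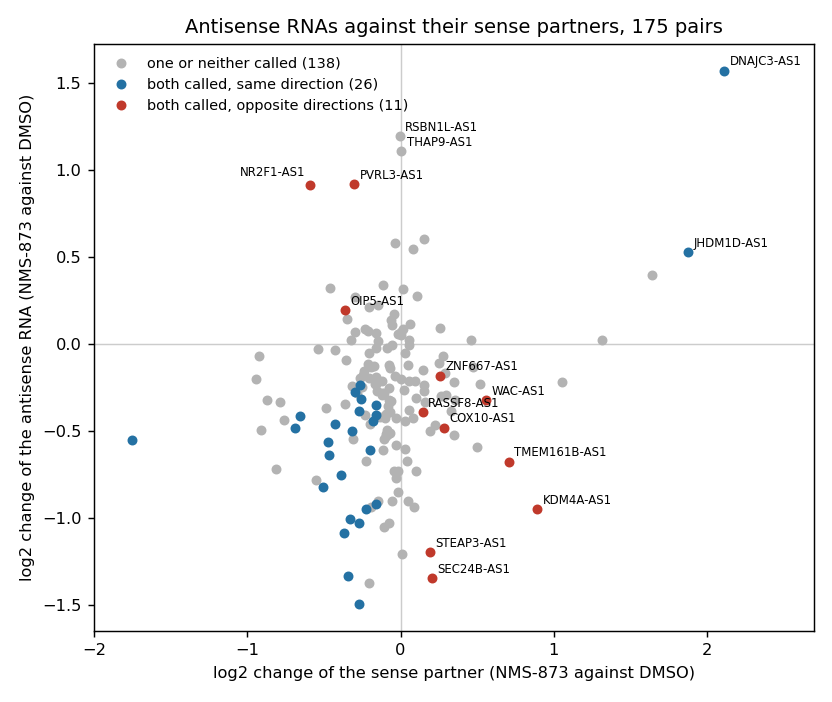
Log2 change with NMS-873 of each antisense RNA (vertical axis) against that of its sense partner (horizontal axis), for 175 pairs, coloured by whether both were called in the same direction, in opposite directions or not at an adjusted p under 0.05. DNAJC3-AS1 and JHDM1D-AS1 lie at the right with partners that rose by 2.11 and 1.87, and the 11 pairs called in opposite directions lie in the upper left and lower right.

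By position, the members called higher and lower were spread over all classes of pairs. Among the 46 pairs that ran apart head to head 4 members rose and 15 fell (8.70% and 32.6%), and among the 86 that overlapped head to head 5 rose and 35 fell (5.81% and 40.7%). Of the 33 that overlapped tail to tail 1 rose and 12 fell, and of the 18 inside their partner 2 rose and 8 fell. The correlation of the 2 changes across pairs was 0.49 in the 45 head to head pairs that do not overlap and have a tested partner, and 0.24 in the 44 left without DNAJC3-AS1. It was 0.12 in the 80 that overlap head to head and -0.23 in the 28 that overlap tail to tail. Where the starts lay within 1000 bases of each other, 21 of 91 tested partners rose and 29 fell, while 5 of 93 members rose and 31 fell. Of these differences between classes none was tested.

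Besides DNAJC3-AS1, the second member that rose with its partner was JHDM1D-AS1. It was at 28.8, 51.3 and 45.6 normalised counts in the DMSO libraries and 62.2, 50.9 and 65.2 with NMS-873 (log2 change 0.53, adjusted p = 0.00878), and its groups overlapped. Without DMSO replicate 1 the log2 change was 0.28 and the call was lost (adjusted p = 0.226), as it was without the variance trend (adjusted p = 0.108). JHDM1D, a histone demethylase also called KDM7A, rose from 204 ± 20.1 to 747 ± 9.50 normalised counts (log2 change 1.87, adjusted p = 3.00e-66), with 225 bases between the 2 genes. The log2 ratio of the pair fell from -2.29 to -3.64 without overlap.

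Other partners moved far beside members that did not pass the test; these were named after their values were seen. MATN1, a cartilage matrix protein, rose 3.11-fold at a low level, from 8.93 ± 1.22 to 29.8 ± 2.38 normalised counts. MATN1 passed the minimum mean only through its NMS-873 libraries, so its rise is not independent of that choice. MATN1-AS1 had a log2 change of 0.40 (adjusted p = 0.280). UGDH, which makes UDP-glucuronate, rose 2.48-fold from 1673 to 4151 normalised counts, while UGDH-AS1 was at 34.0 and 35.5 (log2 change 0.0214, adjusted p = 0.942). PDCD4, an inhibitor of translation initiation, rose 2.08-fold, and PDCD4-AS1 had a log2 change of -0.22 (adjusted p = 0.459). TRAM2, a protein of the ER translocon, fell 1.92-fold, and TRAM2-AS1 had a log2 change of -0.20 (adjusted p = 0.0806). SERTAD4 had the largest fall of a tested partner, 3.37-fold, and SERTAD4-AS1 fell too, by 0.55 on the log2 scale (adjusted p = 3.02e-07).

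In 3 of the 11 pairs called in opposite directions the antisense RNA rose. PVRL3-AS1 (chromosome 3, 110612555 to 110790400, minus strand) was at 251, 248 and 301 normalised counts in the DMSO libraries and 517, 529 and 464 with NMS-873 (log2 change 0.92, SE 0.0789, adjusted p = 7.77e-24). PVRL3, the adhesion protein nectin-3, fell from 1198 ± 61.8 to 972 ± 43.2 (log2 change -0.30, adjusted p = 5.19e-06). Neither set of libraries overlapped, and the log2 ratio of the pair rose by 1.22. NR2F1-AS1 was at 37.0, 48.5 and 67.5 with DMSO and 95.2, 96.9 and 89.97 with NMS-873 (log2 change 0.91, adjusted p = 6.66e-08). NR2F1, an orphan nuclear receptor, was at 104, 81.8 and 68.5 and then at 46.1, 57.8 and 63.1 (log2 change -0.59, adjusted p = 5.48e-04). With DMSO the partner had more reads than the antisense RNA in every library, and with NMS-873 fewer in every library. OIP5-AS1, an abundant conserved RNA that binds the protein HuR, was at 2653, 2455 and 2515 with DMSO and 2734, 2999 and 2984 with NMS-873 (log2 change 0.19, adjusted p = 0.00155). OIP5, which helps load the centromeric histone, fell from 472 ± 16.7 to 368 ± 28.8 (log2 change -0.36, adjusted p = 1.52e-05). This small rise of OIP5-AS1 was lost without the variance trend (adjusted p = 0.0525).

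In the other 8 the antisense RNA fell while its partner rose. Of these, SEC24B-AS1 and STEAP3-AS1 passed the minimum mean only through their DMSO libraries, so their falls are not independent of that choice. With a minimum mean of 50 both pairs were lost, as was that of KDM4A-AS1. KDM4A-AS1 (chromosome 1, 44165436 to 44173809, minus strand) was at 33.9, 37.1 and 50.6 normalised counts in the DMSO libraries and 16.0, 22.5 and 22.8 with NMS-873 (log2 change -0.95, SE 0.224, adjusted p = 1.37e-04). KDM4A, a histone demethylase that it overlaps tail to tail, rose from 1661 ± 9.31 to 3085 ± 67.5 (log2 change 0.89, adjusted p = 5.90e-40). The log2 ratio of this pair fell by 1.84, the most of the 11. SEC24B-AS1 was at 13.4, 18.1 and 13.9 with DMSO and 6.01, 3.92 and 6.21 with NMS-873 (log2 change -1.35, adjusted p = 0.00149). SEC24B, a cargo adaptor of the COPII coat that carries proteins out of the ER, rose by 0.21 (adjusted p = 0.00148), and the 2 genes start 45 bases apart. STEAP3-AS1 lies inside STEAP3, an iron reductase of endosomes, and was at 19.5, 19.02 and 18.9 with DMSO and 7.02, 12.7 and 5.17 with NMS-873 (log2 change -1.20, adjusted p = 0.00123). STEAP3 itself rose by 0.19 (adjusted p = 0.00132).

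TMEM161B-AS1 (chromosome 5, 87564712 to 87732502, plus strand) was at 146, 145 and 134 normalised counts in the DMSO libraries and 83.2, 97.9 and 83.8 with NMS-873 (log2 change -0.68, SE 0.122, adjusted p = 4.78e-07). TMEM161B rose by about the same size, from 330 ± 21.2 to 539 ± 28.8 (log2 change 0.71, adjusted p = 5.40e-17), beside the 270 shared bases printed above. WAC-AS1 was at 182, 187 and 182 with DMSO and 138, 152 and 150 with NMS-873 (log2 change -0.32, adjusted p = 0.00602). WAC, an adaptor for ubiquitylation of histone H2B, rose from 3094 ± 77.1 to 4551 ± 177 (log2 change 0.56, adjusted p = 8.58e-20). COX10-AS1 fell by 0.48 and COX10, an enzyme of heme A synthesis in mitochondria, rose by 0.29, with their annotated genes next to each other. The call of COX10 was lost without the variance trend (adjusted p = 0.0825).

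RASSF8-AS1 fell by 0.39 and RASSF8 rose by 0.14, and ZNF667-AS1 fell by 0.18 and ZNF667 rose by 0.26. The call of RASSF8 was lost without DMSO replicate 1 (adjusted p = 0.0516), DMSO replicate 2 (0.148), NMS-873 replicate 2 (0.0539) or NMS-873 replicate 3 (0.257). It was also lost with no minimum (0.0532) and without the variance trend (0.157). ZNF667-AS1 no longer passed with gene-based size factors (log2 change -0.0799, adjusted p = 0.294), and neither did WAC-AS1 (log2 change -0.22, adjusted p = 0.0560). ZNF667-AS1 was also lost without DMSO replicate 2 (log2 change -0.19, adjusted p = 0.0530), DMSO replicate 3 (log2 change -0.16, adjusted p = 0.104) or NMS-873 replicate 1 (log2 change -0.12, adjusted p = 0.213), and without the variance trend (adjusted p = 0.0986). The call of ZNF667 was lost without DMSO replicate 1 (adjusted p = 0.0722). Of the 11 pairs, 9 remained called in opposite directions with gene-based size factors, 9 or 10 when 1 library was left out, 8 with a minimum mean of 50 and 7 without the variance trend. The log2 ratio of antisense to sense did not overlap between treatments in these 11, which were chosen for changes in opposite directions. Among all 175 pairs this ratio was higher with NMS-873 in every library in 27, lower in 63 and overlapping in 85. The counts of single genes, over all genes tested, were apart in 16.4% (higher) and 37.2% (lower). No such share was computed for ratios of other pairs of genes, so these counts are not particular to antisense RNAs and their partners.

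**Figure D4:**
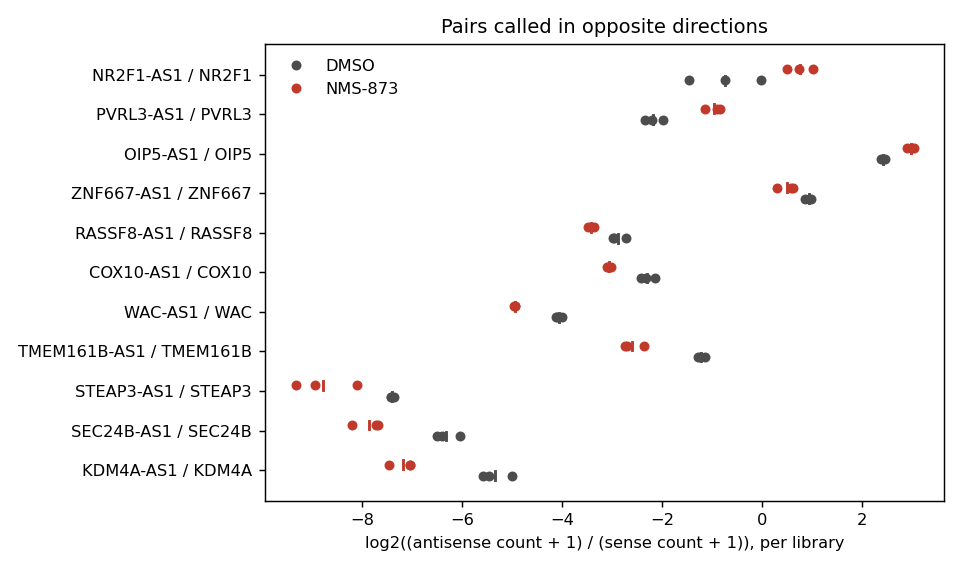
Log2 ratio of the normalised counts of antisense RNA and sense partner, 1 added to each, per library, for the 11 pairs called in opposite directions, with bars at the group means. The pairs were chosen for opposite changes, which move this ratio apart, and KDM4A-AS1 shows the largest shift, -1.84.

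No source used here gives the strand setting of the counting. Without strand, reads of overlapping genes on both strands could not be told apart. Of 159 genes whose exons lie wholly within exons of the opposite strand in GENCODE 29, beneath a gene with at least 5000 reads over the 6 libraries, 117 had at least 1 read. Their reads came to a median of 0.0152% of those of the gene above them, and to 0.0876% at the 90th percentile. The part of reads from the opposite strand in the counts of the members was not tested. The lowest member in these terms was SRRM2-AS1, at 0.116% of the reads of SRRM2, and VIM-AS1 was next, at 0.182% of those of VIM. STEAP3-AS1, SEC24B-AS1 and KDM4A-AS1 were at 0.376%, 0.750% and 1.28% of their partners. These pairs are among those picked out above for calls in opposite directions. Of the exon bases of DNAJC3-AS1, JHDM1D-AS1, RSBN1L-AS1 and PVRL3-AS1, 0% lay under exons of the other strand. For KDM4A-AS1 the share was 24.0%, for TMPO-AS1 21.2% and for EPB41L4A-AS1 49.6%.

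The authors' deposited table holds their own comparison of the same libraries. It gives an adjusted p under 0.05 for 11 members that were higher and 49 that were lower, beside 12.4% and 24.2% of all genes tested here. All 60 were called here with the same sign. The reverse does not hold, since 14 rises and 77 falls were called here. The rises of EPHA1-AS1, JHDM1D-AS1 and EIF3J-AS1 were not called there. Of the pairs called in opposite directions, the falls of STEAP3-AS1, WAC-AS1, COX10-AS1 and ZNF667-AS1 were not called there. Neither were the falls of ACVR2B-AS1 and RUSC1-AS1.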

How the data were processed

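The 6 libraries were grouped by their titles. The authors' FPKM values per library were used with the deposited mean normalised count, a signal in units of reads divided by size factors, and with the log2 fold change and adjusted p-value of the authors' own comparison. The header gives no unit for the library columns; that they are FPKM was read from the values. The submitters' processing notes name featureCounts 1.5.1, DESeq2 1.16.1 and build hg19, and no source used here names an aligner or a strand setting.

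The design had assumed normalised counts per library, which were rebuilt as FPKM times the deposited mean normalised count divided by the mean FPKM of the gene. Multiplied by the implied size factors, 100.0% of values were whole read numbers within a tolerance of 0.001. These factors are what the median of ratios gives over the 92 spike-in rows, which the table holds although the labels do not mention spike-in RNA, so a change in total RNA, or an error in the spike-in amount, would move all genes.

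The 14889 genes with a mean of at least 10 were tested together with limma 3.58.1 (R version 4.3.3) on the scale log2(normalised count + 1), which understates the changes of low genes, with treatment as the only term, a variance trend, two-sided tests and Benjamini-Hochberg adjustment, which gives all adjusted p-values in the text. The deposited unit is FPKM, so count models were not used, and voom ran on the rebuilt reads as an alternative. Alternatives were gene-based, TMM and equal-total scaling, pseudocounts of 0.5 and 5, minimum means of 50 and 0, no variance trend, a replicate block and leaving out each library. The analysis was tested on simulated data. The prior of the fit had 250.8 degrees of freedom, so the spread of a gene came mostly from genes of like level. Without molecular identifiers, counting error understates the error. Within treatments replicate pairs had chi-square values of 1.53 to 7.82 per degree of freedom, so none agreed within sampling noise.

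The members and lists were chosen with earlier results of these data known. Named genes are the 10 largest rises and 10 largest falls among members called without overlap, the 6 highest by FPKM, pairs called in opposite directions, the 6 largest differences within pairs, the 2 members and 2 other rows nearest the minimum, and members whose partner is on a list of stress, sterol and cell cycle genes. A partner symbol on several rows was read from its highest row. RefSeq windows were matched by Ensembl identifier, symbol or synonym.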

Additional observations from a re-analysis of the deposited data

How the results depend on the processing

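Scaling moved the sense partners about as it moved all genes tested. A change of size factors shifts all genes alike apart from the pseudocount, so this follows from the method. With gene-based size factors 49 partners rose and 41 fell and their median turned from -0.0935 to 0.0107. The median of all genes tested went from -0.10 to 0.000787, with 25.3% called higher and 20.9% lower. With TMM factors 50 partners rose, 37 fell and the median was 0.0199. The median of the antisense RNAs was -0.19 and -0.18 with these factors and -0.26 with a pseudocount of 5. With TMM factors 17 pairs were called in the same direction. When each library was left out in turn, 12 to 15 antisense RNAs rose and 67 to 75 fell, with medians of -0.31 to -0.25. Over the same fits 26 to 34 partners rose and 51 to 64 fell, and 23 to 27 pairs were called in the same direction and 9 to 12 in opposite ones. Under every alternative run the antisense RNAs that fell outnumbered those that rose. Among all genes tested falls also outnumbered rises in the main fit (33.0% against 14.9%), though not with gene-based size factors. The shares of all genes tested under the other alternatives are not given here. The 14 antisense RNAs that rose were all called with gene-based, TMM and equal-total scaling, both pseudocounts, voom, no minimum and the block. With a minimum of 50 fewer members were tested, and 12 rose and 52 fell. Without the variance trend 12 rose and 73 fell. DNAJC27-AS1, which did not pass the test, ranged from -0.455 without DMSO replicate 3 to 0.0594 without DMSO replicate 2. Same-numbered replicates did not deviate together (correlations 0.0394, -0.0253 and 0.0425), and with a replicate block 14 antisense RNAs rose and 79 fell, 31 partners rose and 69 fell, and 29 and 11 pairs were called in the same and in opposite directions; the samples share only a number. The cause of these differences was not tested. Of the members 102 had a mean below 50 normalised counts, and of these 2 rose and 25 fell; the size of change detectable at that depth was not tested.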

Other observations

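Other sets of transcripts named or typed for their place beside a host gene were counted. Of 8 tested rows with an -IT name, for transcripts within an intron of the host gene, 2 rose and 2 fell, with a median log2 change of 0.01. Among all genes tested 14.9% were called higher and 33.0% lower, and 8 rows are too few to compare with these shares. ALMS1-IT1 rose from 63.0 ± 2.16 to 98.9 ± 14.1 normalised counts (SD, n = 3 libraries each, limma adjusted p = 5.56e-05 over all genes tested), and CRHR1-IT1 rose by 0.27 on the log2 scale. HS1BP3-IT1 fell from 37.6 ± 7.82 to 18.4 ± 3.45, and ANKRD10-IT1 fell by 0.64 on the log2 scale. No row with an -OT name reached a mean of 10.

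In GENCODE 29, 127 of the 199 members matched by identifier are typed antisense. A further 400 tested genes carry this type without being members, a set chosen after the data were seen. Of these 10 rose (2.50%) and 139 fell (34.8%), beside 14.9% and 33.0% of all genes tested. At means of 10 to 50 the shares of all genes were 4.7% and 22.5%. The median log2 change of the 400 was -0.34, with a median mean of 25.0 normalised counts. The one with the largest rise was LINC00632, the precursor locus of the circular RNA CDR1as, from 30.9, 33.3 and 27.8 normalised counts with DMSO to 66.2, 93.0 and 97.2 with NMS-873 (log2 change 1.43, adjusted p = 7.68e-14 in limma). AC084219.4 fell from 201, 190 and 177 to 61.2, 59.7 and 56.9 (log2 change -1.66).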
